A study of Rattus norvegicus with 9 samples.

Results

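Lcn2, Pla2g2a, Ccl7, Crp, Il33 and Cxcl12 are 6 secreted genes of the innate immune and inflammatory response, and they were followed by gene identifier through mRNA-seq of rat bone marrow mesenchymal stem cells (MSCs) and of the neural progenitor-like cells (NPCs) induced from them. They are 6 of the 26249 gene units in the processed files, and they were chosen by name for their function, with earlier results of these data known. Each was present in the annotation of all 9 libraries, and all 6 passed the minimum level for testing in every comparison. Pla2g2a passed it through induced libraries alone, and Lcn2 also needed induced libraries to pass.

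The groups were untreated MSCs (n = 3), NPCs induced with EGF and bFGF (n = 3), and cells that received IGF-1 beside EGF and bFGF (n = 3). All came from bone marrow of 4-week-old Sprague Dawley rats at passage 3, and both inductions lasted 3 days. Induced cells were kept in suspension in a neural stem cell proliferation medium, so growth factors, medium and loss of attachment cannot be told apart in a comparison with MSCs. The labels and methods give no dose for IGF-1. They also do not say which replicate came from which animal, so the spread between libraries may be partly technical. Levels are FPKM, which relate reads to transcript length and library depth, summed over the isoforms of a gene. The depth implied by the deposited confidence intervals was 42.1 to 55.2 M reads per library. In bulk RNA, fewer cells of a type and less RNA per cell cannot be told apart.

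The 6 products act at different places in inflammation. Lcn2 (lipocalin-2) withholds iron from bacteria by binding their siderophores, Pla2g2a is a secreted phospholipase A2 that attacks bacterial membranes, and Crp (C-reactive protein) is a pentraxin made mainly by hepatocytes in the acute phase. Ccl7 is a chemokine that draws monocytes, and Cxcl12 is the chemokine by which marrow stroma retains blood stem cells. Il33 is an alarmin of the interleukin-1 family that is stored in the nucleus and released from damaged cells. Lcn2, Pla2g2a and Ccl7 are known targets of NF-kB, C/EBP and related factors, which respond to cytokines and bacterial products.

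The 250 bases before the RefSeq start sites of Lcn2, Pla2g2a and Ccl7 are shown because the levels of these genes rose most of the 6. They are read 5′ to 3′ towards the start on the strand of the gene in build GRCr8, from chr3:36081781-36082030 on the minus strand for Lcn2, from chr5:156359475-156359724 on the plus strand for Pla2g2a and from chr10:67513845-67514094 on the plus strand for Ccl7. Capitals mark the matches to the searched motifs.
Lcn2: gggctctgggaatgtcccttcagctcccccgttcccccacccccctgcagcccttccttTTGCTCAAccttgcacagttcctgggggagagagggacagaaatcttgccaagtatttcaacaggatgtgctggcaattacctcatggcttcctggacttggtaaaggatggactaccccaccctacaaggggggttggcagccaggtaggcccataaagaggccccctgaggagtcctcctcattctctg
Pla2g2a: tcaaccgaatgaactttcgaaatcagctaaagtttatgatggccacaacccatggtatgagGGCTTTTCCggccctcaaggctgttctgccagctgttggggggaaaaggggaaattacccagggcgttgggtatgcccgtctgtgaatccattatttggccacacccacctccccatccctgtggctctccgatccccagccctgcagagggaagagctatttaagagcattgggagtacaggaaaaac
Ccl7: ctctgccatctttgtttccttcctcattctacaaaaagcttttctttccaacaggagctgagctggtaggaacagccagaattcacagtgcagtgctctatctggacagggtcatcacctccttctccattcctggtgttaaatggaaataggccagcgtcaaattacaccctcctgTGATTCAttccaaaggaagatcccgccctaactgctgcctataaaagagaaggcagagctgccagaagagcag
The motifs were searched on both strands as GGNNTTTCC and GGNNTTCCC for NF-kB, TTGCNCAA and TTNCGCAA for C/EBP, TGANTCA for AP-1, TGACGTCA for CRE, and ACGTG for the hypoxia element, which shares ACGT with the CRE. The Lcn2 window held a C/EBP match at -191 to -184 from the start, a motif found in 2.86% of the 33469 windows of this length in the RefSeq table. The Pla2g2a window held an NF-kB match at -189 to -181 (9.7% of all windows), and the Ccl7 window an AP-1 match at -73 to -67 (6.34% of all windows). Of the other members, Crp had an AP-1 match at -180 to -174, and no searched letters were found before the start of Cxcl12 or before either of the 2 starts listed for Il33. No window of a member held a CRE match (1.59% of all windows) or a hypoxia match (16.6%). The matches are descriptions of these windows, and binding was not measured.

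Lcn2 was nearly absent from MSCs and abundant after induction. In MSCs it stood at 0.0281, 0.145 and 0.131 FPKM, which corresponds to about 1, 6 and 6 reads. NPCs had 18.3, 21.8 and 46.4 FPKM, and cells induced with IGF-1 had 45.3, 72.9 and 116 FPKM. The induced groups therefore lay far above every MSC library, and they overlapped each other only at the highest NPC library and the lowest library with IGF-1. In limma with Benjamini-Hochberg adjustment over all genes tested, the log2 fold change of FPKM + 0.1 against MSCs was 7.03 (SE 0.43, adjusted p = 5.12e-05) in NPCs and 8.49 (SE 0.45, adjusted p = 3.0e-06) with IGF-1. MSC replicate 1 was under the minimum of 0.1 FPKM, so Lcn2 was tested only with the help of induced libraries. Its adjusted p is therefore no separate support for the rise. Over the alternatives, other constants included, the fitted change in NPCs ran from 4.60 to 8.06. The gene (ENSRNOG00000013973, chromosome 3, 16763059 to 16766466, minus strand, 6 exons, in the build of the files) had a single assembled isoform in every library. In each induced library that isoform was marked as having full read support, and in none of the MSC libraries.

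Pla2g2a followed the same course. It was listed at 0 in MSC replicates 1 and 2 and at 0.0715 FPKM, about 2 reads, in replicate 3. NPCs had 20.4, 19.1 and 30.5 FPKM, and cells with IGF-1 had 36.5, 44.6 and 78.9 FPKM. All 6 induced libraries were above all MSC libraries, and every library with IGF-1 was also above every NPC library. The log2 fold change against MSCs was 7.51 (SE 0.33, adjusted p = 1.4e-05) in NPCs and 8.66 (SE 0.35, adjusted p = 6.23e-07) with IGF-1. No MSC library reached the minimum of 0.1 FPKM, so the gene was tested only because it was high in induced libraries. Its adjusted p is therefore no separate support for the rise. Because so few reads lay in the MSC libraries, these fitted values depend on the constant added before the logarithm and ran from 4.50 with a constant of 1 to 10.05 with 0.01 in NPCs. As a ratio of reads per depth, 1818 reads in NPCs stood against 2 in MSCs, which gives 1005-fold with an exact 95% counting interval of 278 to 8301 that covers counting error only. The gene (ENSRNOG00000016945, chromosome 5, 161024073 to 161026647, plus strand, 5 exons) had 1 isoform.

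**Figure D1:**
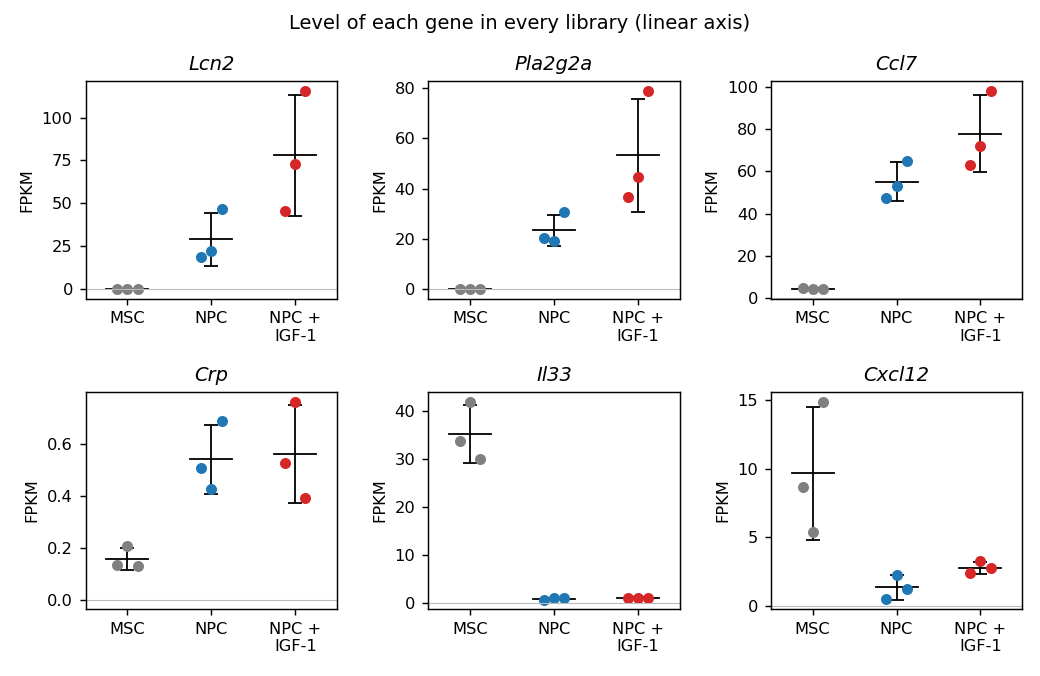
Each panel plots the FPKM of 1 gene on a linear axis in MSCs, NPCs and cells induced with IGF-1. Points are the 3 libraries of a group, and the bar and whiskers are their mean and SD; Lcn2, Pla2g2a, Ccl7 and Crp are higher in all 6 induced libraries than in any MSC library, and Il33 and Cxcl12 are lower in all 6.

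Ccl7 was already expressed in MSCs, at 4.77, 4.53 and 4.60 FPKM. It rose to 47.2, 53.2 and 65.1 FPKM in NPCs and to 63.0, 72.1 and 98.0 FPKM with IGF-1. The MSC libraries were nearly equal (SD 0.123), and every induced library was above them. The log2 fold change was 3.46 in NPCs (SE 0.17, adjusted p = 2.42e-05) and 3.92 with IGF-1 (SE 0.19, adjusted p = 1.75e-06), which is 11.0-fold and 15.2-fold on the scale of FPKM + 0.1.

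Ccl7 (ENSRNOG00000000239) lies on chromosome 10, 69058109 to 69059959, plus strand, in 3 exons, between other chemokine genes. The next annotated gene after it, Ccl11, which encodes eotaxin, was listed at 0 in all MSC libraries, had 0.126 to 0.959 FPKM in the induced libraries, and was called higher in both comparisons (log2 fold changes 2.22 and 2.75), though in neither with a constant of 1 (0.51 and 0.68), nor in NPCs over annotated transcripts alone. The next gene before it, ENSRNOG00000007159, is paired with no name in the sources used here. It rose from 13.0 ± 0.247 FPKM (SD, n = 3) in MSCs to 65.0 ± 30.9 in NPCs and 77.0 ± 15.1 with IGF-1, with log2 fold changes of 2.14 (SE 0.31, adjusted p = 0.00202) and 2.45 (SE 0.29, adjusted p = 0.000248). In RefSeq GRCr8 the gene before Ccl7 is Ccl2, which has the same span of 1799 bases and the same distance of 11018 bases from start to start, and this likeness is not a match of identifiers. The 3 annotated gene units within 10000 bases of Lcn2 were called in neither comparison with MSCs, at log2 fold changes from -0.17 to 0.37.

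Crp was the lowest of the risen genes and close to the minimum level for testing. MSCs had 0.133, 0.205 and 0.128 FPKM, which corresponds to about 9, 16 and 9 reads. NPCs had 0.506, 0.425 and 0.686 FPKM, and cells with IGF-1 had 0.525, 0.761 and 0.390 FPKM, from about 26 to 50 reads. The induced groups did not overlap the MSCs and overlapped each other. The log2 fold change was 1.26 (SE 0.28, adjusted p = 0.0125) in NPCs and 1.28 (SE 0.29, adjusted p = 0.00717) with IGF-1. The call in NPCs was lost without MSC replicate 1 (adjusted p = 0.0512) and over annotated transcripts only (adjusted p = 0.0523), and both calls were lost with a constant of 1 (log2 fold changes 0.39 and 0.41) and with quantile normalisation (0.99 and 0.96). The gene (ENSRNOG00000000053, chromosome 13, 95599335 to 95601216, plus strand, 2 exons) was marked without full read support in all 9 libraries. Alb, the defining product of hepatocytes, was listed at 0 in all 9 libraries, and it was the only 1 of 8 hepatocyte markers with a name.

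Il33 moved in the opposite direction. MSCs expressed it at 33.7, 42.0 and 30.1 FPKM. NPCs had 0.731, 1.01 and 1.02 FPKM, and cells with IGF-1 had 1.10, 0.949 and 1.14 FPKM. The induced libraries lay within a narrow range far below the MSCs. The log2 fold change was -5.19 in NPCs (SE 0.19, adjusted p = 7.83e-06) and -5.00 with IGF-1 (SE 0.18, adjusted p = 3.36e-07), or 36.5-fold and 32.1-fold lower on the scale of FPKM + 0.1.

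Il33 (ENSRNOG00000016456, chromosome 1, plus strand) has 1 annotated transcript of 7 exons, at 255386570 to 255397660. In MSC replicates 1 and 2 an unannotated transcript of 8 exons was assembled beside it at 6.20 and 5.62 FPKM, with a first exon that began 13789 and 13805 bases before the annotated start. Replicate 3 of the MSCs had the annotated transcript only. In replicate 3 with IGF-1 a transcript of the same form held the whole level of 1.14 FPKM, and the annotated transcript was listed at 0. The other induced libraries had the annotated transcript only. Over annotated transcripts alone the mean with IGF-1 was 0.684 instead of 1.06 FPKM.

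Cxcl12 also fell, with wider spread. MSCs had 8.66, 5.39 and 14.9 FPKM. NPCs had 0.495, 2.24 and 1.24 FPKM, and cells with IGF-1 had 2.36, 3.23 and 2.74 FPKM. The order of the groups was MSCs above cells with IGF-1 above NPCs, with no overlap between neighbours, although the highest NPC library and the lowest library with IGF-1 were almost equal. Over annotated transcripts alone the induced groups overlapped. The log2 fold change against MSCs was -2.94 in NPCs (SE 0.56, adjusted p = 0.00641) and -1.74 with IGF-1 (SE 0.51, adjusted p = 0.0244). The call with IGF-1 was lost on leaving out replicate 1 or 3 with IGF-1 or replicate 1 or 3 of the MSCs, with adjusted p from 0.0545 to 0.081. The call in NPCs was lost over annotated transcripts alone (log2 fold change -2.41, adjusted p = 0.0693).

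The isoforms of Cxcl12 (ENSRNOG00000013589, chromosome 4, 215195689 to 215203554, plus strand) differed between libraries. Of its 2 annotated transcripts, the one of 3 exons carried the level, and the one of 4 exons was listed at 0 in all 9 libraries. An unannotated transcript of 4 exons, whose last exon began at 215206034, 2480 bases past the annotated end, was assembled in MSC replicates 1 and 3 (3.78 and 3.76 FPKM) and in all 3 libraries with IGF-1 (0.723, 1.96 and 1.29 FPKM). In that form it was assembled in no NPC library and not in MSC replicate 2. Single-exon transcripts past the annotated end, which were not counted, were present in all 3 NPC libraries (6 transcripts at 1.10 to 3.18 FPKM), in all 3 libraries with IGF-1 (5 at 1.17 to 3.23 FPKM) and in MSC replicates 1 and 2 (3 at 2.17 to 3.38 FPKM). The stretch was thus read in NPCs too, but entered the level of Cxcl12 only where it was joined to the gene, which was the case with IGF-1 and in MSC replicates 1 and 3. Over annotated transcripts alone the mean with IGF-1 was 1.45 instead of 2.77 FPKM, beside 1.33 in NPCs.

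**Figure D2:**
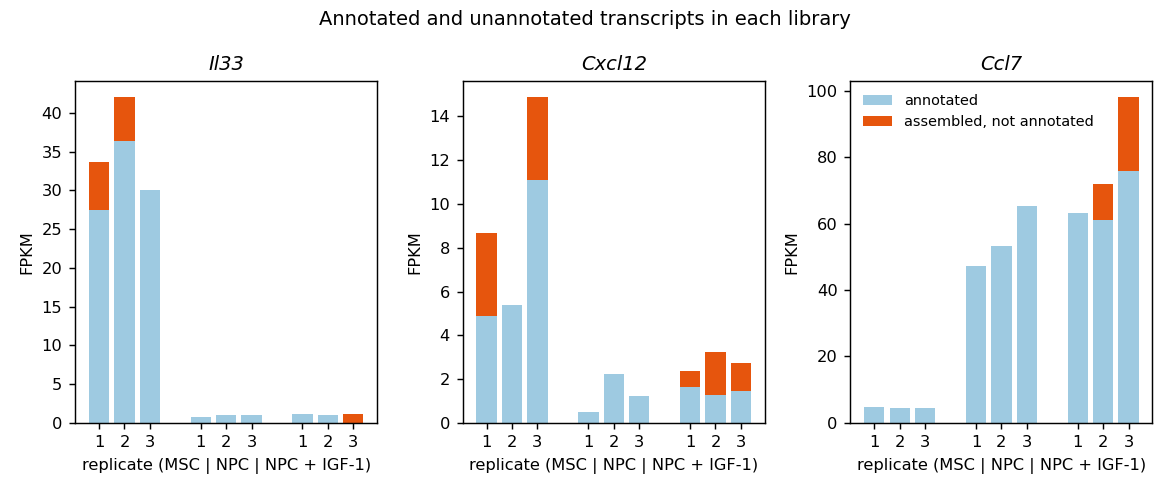
Bars give the FPKM of Il33, Cxcl12 and Ccl7 in each library from a baseline of 0, in the order MSC, NPC and NPC with IGF-1. The lower colour is annotated transcripts and the upper colour is transcripts assembled without annotation, which make up the whole of Il33 in replicate 3 with IGF-1 and part of Cxcl12 in all 3 libraries with IGF-1.

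In Ccl7 the unannotated part was confined, among the 9 libraries, to replicates 2 and 3 with IGF-1. Replicate 2 had 10.9 FPKM in a transcript of 2 exons that joined the first and the last annotated exon. Replicate 3 had 22.2 FPKM in a transcript of 2 exons that began inside the gene. Over annotated transcripts alone, the difference in Ccl7 between the induced groups was 0.23 on the log2 scale instead of 0.47.

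Across the members, NPCs against MSCs gave 4 genes called higher and 2 called lower, where a call needed an adjusted p of 0.05 or less together with a log2 fold change of 1 or more in either direction. Of the 13696 genes tested, 11.5% were called higher and 10.1% lower, and 49.8% had groups that did not overlap, as all 6 members did. Cells induced with IGF-1 against MSCs gave the same 4 genes higher and the same 2 lower, beside 11.6% called higher and 9.80% called lower among the 14228 genes tested. Groups that did not overlap were found for all 6 members and for 54.4% of those genes. By size of the fitted change, Pla2g2a ranked 9 and Lcn2 ranked 14 among all genes in NPCs, and 7 and 8 with IGF-1. These ranks hold for the constant of 0.1, and over the alternatives the fitted change of Lcn2 in NPCs ran from 4.60 to 8.06. Il33 ranked 48 and 80 and Ccl7 237 and 169, while Crp ranked 2394 and 2441. The comparisons share the MSC libraries, so their likeness is not independent. With 3 libraries against 3 an exact permutation test of a single gene cannot go below p = 0.1.

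**Figure D3:**
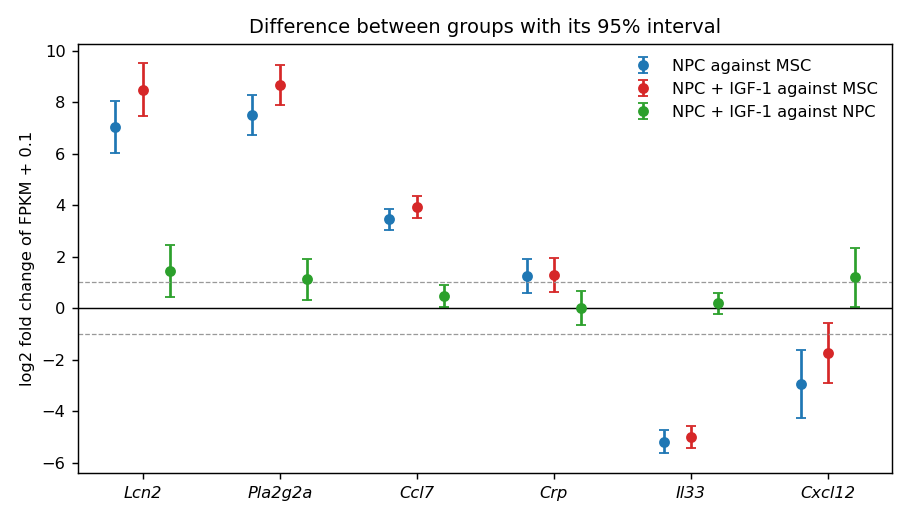
Points are log2 fold changes of FPKM + 0.1 for each gene in the 3 comparisons, and whiskers are their 95% intervals from limma. Dashed lines mark a change of 1 in either direction, and the intervals of all 6 genes exclude 0 in both comparisons with MSCs.

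Adding IGF-1 to EGF and bFGF gave no call among the 6 genes. Only 3 of the 14228 genes tested were called (0.0211%), and 658 had an unadjusted p under 0.05. All 6 members had a positive difference, and 4 of them had an unadjusted p under 0.05. Lcn2 had a log2 difference of 1.44 (limma, 95% interval 0.42 to 2.45, unadjusted p = 0.0106, adjusted p = 0.966), and Pla2g2a had 1.13 (0.33 to 1.92, unadjusted p = 0.0105, adjusted p = 0.966). For Ccl7 it was 0.47 (0.04 to 0.90) and for Cxcl12 1.20 (0.04 to 2.35), both with an adjusted p of 1. Il33 and Crp differed by 0.19 (-0.23 to 0.60) and 0.01 (-0.64 to 0.66). The groups did not overlap for Pla2g2a and Cxcl12, 2 of the 6, against 9.60% of all genes tested. For Cxcl12 this rested on the unannotated transcripts. Over annotated transcripts alone its groups overlapped, at 0.495 to 2.24 FPKM in NPCs and 1.27 to 1.64 with IGF-1.

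Replicate 3 with IGF-1 was the highest of all libraries for Lcn2, Pla2g2a and Ccl7, and replicate 3 was also the highest of the NPC libraries for these 3 genes. Without replicate 3 with IGF-1 the differences were 1.09 for Lcn2, 0.80 for Pla2g2a and 0.28 for Ccl7. The difference in Cxcl12 was 0.28 over annotated transcripts alone and 0.68 without NPC replicate 1.

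Over the 9 libraries the levels of Lcn2, Pla2g2a and Ccl7 followed each other closely, with Pearson correlations of log2(FPKM + 0.1) of 0.996 between Lcn2 and Pla2g2a, 0.996 between Lcn2 and Ccl7 and 0.999 between Pla2g2a and Ccl7. These 9 points fall into MSCs and induced cells, so the correlations mainly describe that step. Among the 1894 tested genes with a name, the closest to Lcn2 after the members was Prg4 (lubricin, 0.993), which was also close to Ccl7 (0.998), and the closest to Pla2g2a was the homeobox gene Dlx3 (0.995). Il33 was most like Ccdc107 (0.999), the mitotic kinesin gene Kif20a (0.997) and Tmem47 (0.997). Cxcl12 was less closely matched, by Gltp (0.964), Cnpy2 (0.95) and Med28 (0.941), and Crp by Mgat4b (0.972), a gene known only by a contig name (0.972) and Hes3 (0.967).

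The members were then set beside other genes of their pathways. Counts and medians of a list include the members that belong to it. Names were available for 2452 genes, taken from the part of the study's tables used here, in which many entries are genes it had selected as changed in these libraries, and 55 of the 258 symbols in the 13 lists could be looked up. Of the 1823 named genes tested in NPCs against MSCs, 53.3% were called (27.3% higher and 26.1% lower), against 16.7% of the genes without a name. With IGF-1 against MSCs, 52.3% of 1894 named genes were called (27.6% higher and 24.7% lower), against 16.6% without a name. Counts of calls in a list have to be read against those shares, and the lists are not independent evidence of a direction. The 55 include the members, with Lcn2, Pla2g2a, Ccl7 and Crp among those called higher and Il33 and Cxcl12 among those called lower. Of the 55, NPCs had 24 called higher, 8 lower, 10 that did not pass and 13 too low to test. Cells with IGF-1 had 26 higher, 8 lower, 15 that did not pass and 6 too low to test, and none was called between the induced groups.

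Among chemokines, 3 of the 5 tested were higher in NPCs and 2 lower, with a median log2 fold change of 2.22 beside 0.02 over all genes. Ccl7 is among the 3 and Cxcl12 among the 2. Ccl22, which attracts T cells and is made by dendritic cells, was listed at 0 in MSCs and at 2.49, 3.84 and 4.30 FPKM in NPCs. With IGF-1 it had 8.68, 4.94 and 4.02 FPKM. Xcl1 joined Cxcl12 among the lower genes, at 1.00, 1.51 and 0.247 FPKM in MSCs and listed at 0 in all 6 induced libraries, and was called in neither comparison with a constant of 1. Of the receptors, Cxcr3 and Ackr2 were the only ones with a name, and both stayed under 0.3 FPKM in every library.

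Among acute phase and NF-kB dependent secreted proteins, 5 of 7 tested were higher in NPCs and 1 lower, with a median log2 fold change of 1.94. The members Lcn2, Pla2g2a and Crp are among the 5. Ptx3, the long pentraxin made locally in inflamed tissue, rose from 0.390 ± 0.0999 FPKM (SD, n = 3) in MSCs by a log2 fold change of 1.94 in NPCs (SE 0.47, adjusted p = 0.0163) and 2.56 with IGF-1 (SE 0.42, adjusted p = 0.00139). Tnfaip6, an anti-inflammatory product of MSCs, went the other way, at 32.8, 44.2 and 10.2 FPKM in MSCs and log2 fold changes of -2.68 and -2.05. The complement gene Cfb had -0.62 and -0.53 and was not called. All 3 tested pentraxins, Crp among them, were higher, and Nptx1, the neuronal pentraxin, had log2 fold changes of 3.34 and 4.16. Over annotated transcripts alone none of the 3 was called in NPCs (adjusted p = 0.0866 for Ptx3 and 0.403 for Nptx1), and Nptx1 was not called with IGF-1 either (0.468).

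Around Pla2g2a, 4 of the 8 tested genes of phospholipases A2 and eicosanoid synthesis were higher in NPCs and 1 lower, with a median of 1.53. Pla2g2a itself is among the 4. Ptgs1 (cyclooxygenase-1) rose by 2.10 on the log2 scale, Ptges (prostaglandin E synthase) by 2.68 and Ltc4s (leukotriene C4 synthase) by 3.73. Alox5ap, which serves the first step of leukotriene synthesis, had -2.25. Pla2r1, the receptor that binds secreted phospholipases A2, had 0.97 and 0.64 and was not called, the cytosolic enzyme gene Pla2g4a had 0.05, and Pla2g5, the nearest named relative, stayed at or under 0.269 FPKM in all libraries.

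Around Il33, Il18r1, a receptor subunit of the interleukin-1 family, fell with it, from 1.42 ± 0.216 FPKM (SD, n = 3) in MSCs with log2 fold changes of -3.05 (SE 0.44, adjusted p = 0.00195) and -3.55 (SE 0.42, adjusted p = 0.000238). Il18r1 was called in neither comparison over annotated transcripts alone (log2 fold changes -0.78 and -1.28). Il18bp, which neutralises interleukin-18, had 0.30 and 0.74 and was not called. Around Lcn2, the ferritin heavy chain gene Fth1 rose by 1.88 and 2.47 on the log2 scale, and the transferrin receptor gene Tfrc had -0.95 in both comparisons and was not called.

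Regulators of NF-kB, C/EBP and STAT3 signalling were mostly higher, with 4 of 5 called in NPCs and 5 of 5 with IGF-1. Socs1 was called with IGF-1 only (1.77, at 0.580 beside 0.108 FPKM on average in MSCs). With a constant of 1 it was not called (0.49). In NPCs the log2 fold change was 3.66 for Bcl3, 2.22 for Tnfaip3, 2.09 for Nfkbia and 1.88 for Irf1, of which Nfkbia and Tnfaip3 restrain NF-kB. Tnfaip3, counted over annotated transcripts alone, had the opposite sign and was not called (-1.57 in NPCs and -0.69 with IGF-1). Among toll-like receptors, Tlr2, which senses bacterial lipoproteins, had 0.0868 to 0.0937 FPKM in MSCs and 14.7 to 29.0 FPKM in the induced libraries, with log2 fold changes of 6.71 and 6.93. Its partner Tlr6 had -1.44 and -1.68 and was called lower in both, although in NPCs not over annotated transcripts alone (adjusted p = 0.0501). Both tested cytokines were higher in NPCs, Il16 by 4.20 and Tnfsf15 by 1.16 on the log2 scale, and Tnfsf15 was not called with IGF-1 (0.82). Its call in NPCs (adjusted p = 0.0487) was lost with a constant of 1 (0.67) and with quantile normalisation (0.91), and over annotated transcripts alone its sign turned (-0.60). Of the complement genes, Cfd (adipsin) was higher by 2.08 and 3.86, the first not called with a constant of 1 (0.49). The interferon list had 3 of 7 higher in NPCs (Psmb9 3.20, Irf7 2.56, Isg15 1.79) and 1 lower (Ifit2 -1.15). Over annotated transcripts alone Irf7 and Isg15 were not called in NPCs, nor Irf7 with IGF-1, and with a constant of 1 Ifit2 was not called in NPCs nor Isg15 with IGF-1.

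**Figure D4:**
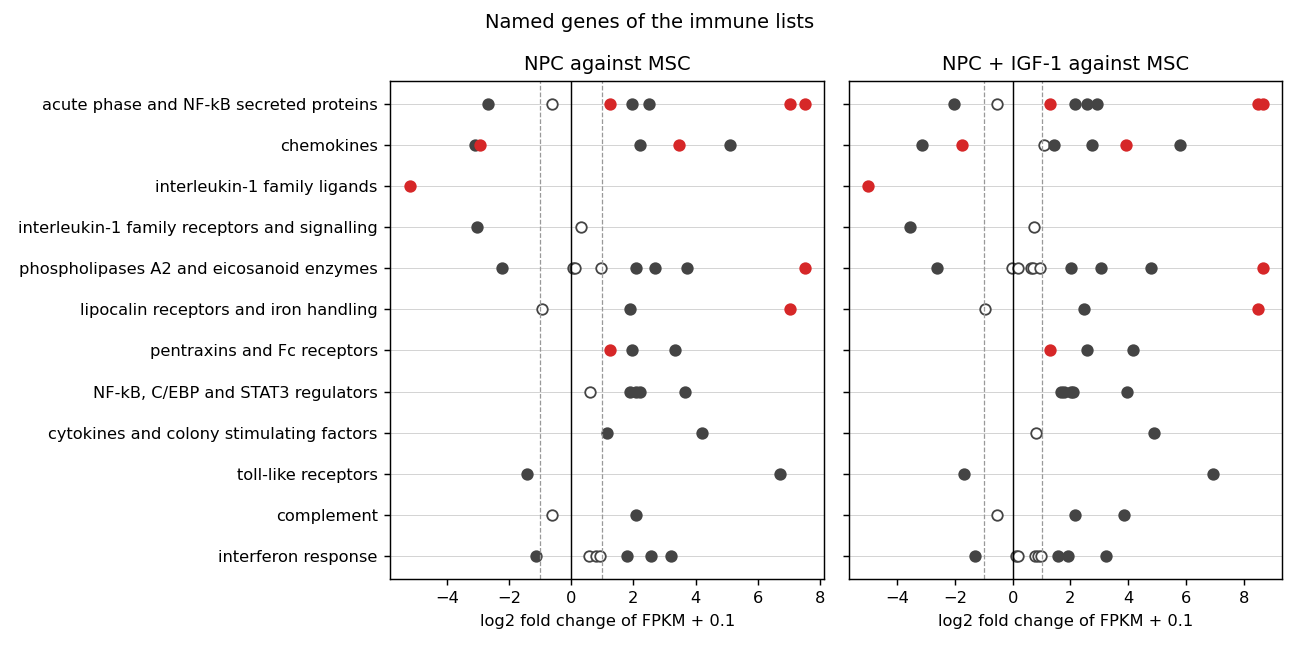
Each point is a named and tested gene of an immune list, placed by its log2 fold change of FPKM + 0.1 in NPCs (left) and in cells induced with IGF-1 (right) against MSCs. Filled points were called, open points were not, and the members are in red, with Lcn2 and Pla2g2a farthest to the right in both panels.

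Markers of other cells were checked because several members are made by leukocytes or liver. Of the 13 macrophage markers 3 were named. Cd68, a lysosomal protein, rose from 0.226 to 0.502 FPKM in MSCs to 8.93 to 14.4 FPKM in the induced libraries (log2 fold changes 4.55 and 4.56), in the direction of Lcn2, Pla2g2a and Ccl7. Ptprc, the pan-leukocyte marker CD45, was at most 0.0142 FPKM and Aif1 at most 0.0403 FPKM in any library. Mmp9, the 1 named neutrophil marker, was called higher at 1.71 to 3.86 FPKM beside 0.0866 to 0.129 in MSCs, and none of the lymphocyte markers had a name. Vwf, the 1 named endothelial marker, was also called higher in NPCs (0.345 beside 0.0177 FPKM on average, log2 fold change 1.83, adjusted p = 0.00482) and was not called with IGF-1 (0.97). The call of Vwf in NPCs was lost with a constant of 1 (0.39), and over annotated transcripts alone the gene was not tested. Whether a change in the makeup of the culture took part in the results for the members was not tested. Of the 10 MSC markers 3 were named. Vim and Itgb1 were abundant in MSCs and fell by 1.92 and 2.24 on the log2 scale in NPCs. The third, Nes, which is also a neural progenitor marker, went the other way at a low level. It had 0.117 FPKM on average in MSCs and 0.305 in NPCs (log2 fold change 0.89, not called), and at most 0.331 FPKM in any library. Of 4 named neural progenitor markers none was called higher. Prom1 was called lower in NPCs (-2.56), though not with a constant of 1 (-0.66), Msi1 was not called, and Fabp7 was listed at 0 in all libraries.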

How the data were processed

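The 9 libraries of polyadenylated RNA were made with a stranded kit from 300 ng of total RNA. The authors deposited 1 Cufflinks assembly per library, in which every transcript has its FPKM (linear, not scaled between libraries) and a 95% confidence interval. A score per transcript was also deposited and was not used. The submitters' processing notes list TopHat, Bowtie2, Cufflinks and Cuffdiff after base calling with CASAVA 1.8 and bcl2fastq. The build was not given in the sources used, so positions are those of the files. The study's methods describe another route by counts, not used here.

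The files list 29145 annotated transcripts, which gave 26249 gene units, and FPKM were summed per gene with the assembled isoforms that overlap its exons. Reads behind a value were estimated from the width of its interval and hold for genes with 1 isoform. After scaling by median-of-ratios size factors, log2(FPKM + 0.1) was fitted with limma 3.58.1 in R 4.3.3 (eBayes with trend and robust) for genes at 0.1 FPKM or more in at least 3 libraries and with a transcript of at least 300 bases. NPCs against MSCs used 6 libraries and the comparisons with IGF-1 used all 9. A gene could pass the filter on level through 1 group alone. Pla2g2a, Tlr2, Ccl22, Ccl11, Il16, Cfd and Vwf passed it through induced libraries alone, and Xcl1 and Prom1 through MSCs alone. The adjusted p of these genes is therefore no separate support for their change. Other steps ran in Python 3.11.15 (pandas 2.3.3, numpy 2.4.6, matplotlib 3.10.9, scipy 1.17.1).

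On made-up data with 100 genes changed by 1.5 and 100 by 3 (log2), NPCs against MSCs recovered 53 and 92 with 3 false calls in 13446 genes. For IGF-1 against MSCs it recovered 61 and 93 with 10 false calls in 13921, and for IGF-1 against NPCs 58 and 86 with 3 in 13922.

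The members and lists were chosen with earlier results of these data known. Named were the 6 members, their named receptors and relatives, up to 5 called genes of each list by size of change at a mean of at least 1 FPKM in a group (or, under 3 calls, the most abundant), and the 3 genes most correlated with each member. Ccl11, Xcl1, Socs1, ENSRNOG00000007159 and the marker genes given with values were named after their values were seen. Alternatives were other constants, filters and scalings, annotated transcripts only, a replicate block, other fits and leaving out each library. Protein sequences were not used here.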

Additional observations from a re-analysis of the deposited data

Results flagged for a closer look

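Single-exon transcripts without annotation, outside the summed levels, were assembled on the strand of 4 members. Those at Cxcl12 were present in every group. Those at Il33 were present in MSCs alone, at 1.31, 2.69 and 1.67 FPKM in replicates 1, 2 and 3. They began 72 to 88 bases past 255397910, the end of the unannotated isoform in MSC replicate 2, and farther past the annotated end. Those near Lcn2 and Ccl7 were present in induced libraries and in no MSC library. Unannotated transcripts were more numerous in induced libraries in general, at 64618 to 90998 per library against 28763 to 36570 in MSCs. Their absence from MSCs is thus not a trait of these loci. Downstream of Lcn2, between 4338 and 6488 bases past its end, they were listed at 20.2 FPKM in NPC replicate 1, 5.07 in NPC replicate 2, 6.81, 13.8 and 8.41 in replicate 1 with IGF-1, and 2.78 and 41.5 in replicate 2 with IGF-1. Of these 7, 6 lay within the intron of ENSRNOG00000022681, an annotated gene on the same strand with 25.7 to 41.0 FPKM in all 9 libraries, so they cannot be tied to Lcn2. Each was 138 to 306 bases long and rested on about 11 to 19 reads. In replicate 3 with IGF-1, a transcript of 53 bases inside an intron of Ccl7 was listed at 17747 FPKM on about 11 reads. Another of 401 bases was listed there at 1.15 FPKM on about 10 reads. It began 485 bases past the end of the unannotated Ccl7 isoform of that library, and farther past the annotated end. FPKM of transcripts this short divide few reads by a very small length and are not levels of the gene. Groups of 3 libraries were too small for the test of single outlying libraries.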

How the results depend on the processing

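The calls of Lcn2, Pla2g2a, Il33 and Ccl7 against MSCs kept direction and side of the threshold in all 137 alternatives that gave a value, and Pla2g2a had none in NPCs without an NPC library, since it then failed the filter. Crp was not tested with a filter of 1 FPKM. Of 117 counts of called list members under other settings, 104 stayed within 1.5 times. Genes called in NPCs against MSCs numbered 1715 with a constant of 1 and 1199 over annotated transcripts, against 2951. With IGF-1 they were 1755 and 1504, against 3044. Between the induced groups 3 became 5 with no filter, 19 over annotated transcripts and 5 without the trend, and 1 to 10 on leaving out a library (10 without replicate 1 with IGF-1, 1 without replicate 3 with IGF-1). Over annotated transcripts the level with IGF-1 was 0.684 FPKM for Il33 and 1.45 for Cxcl12. The sign between the induced groups turned for Il33 over annotated transcripts (-1.05), and for Crp with quantile normalisation (-0.016), over annotated transcripts (-0.013), and without NPC replicate 1 or 2 or replicate 2 with IGF-1 (leave-one-out range -0.19 to 0.20). Quantile normalisation moved the median of all genes by -0.126 and -0.121 against MSCs. Same-numbered libraries correlated at 0.0378, 0.111 and 0.00345 in NPCs and MSCs, and at -0.0956, -0.066 and -0.0409 with IGF-1 and MSCs. With so few libraries, these values cannot show whether the numbers pair them. The study states that the NPCs came from the same biological replicates of MSCs, but the labels do not link the numbers to animals. The main fits therefore used no pairing. The replicate block gave 2866, 3003 and 1 calls and changed no call of a member. Crp and the MSC levels of Lcn2 and Pla2g2a rest on few reads, and their fold changes are the least precise.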
